A study of Drosophila melanogaster with 12 samples.

Results

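The Cpr family holds the cuticular protein genes of *Drosophila* that are named Cpr and a number for their place on the polytene chromosome map. All genes of the deposited expression table whose symbol is Cpr followed by a digit were taken, except *Cpr66D* and *Cpr72Ec*, which left 68 of 70 such genes, with 91 of the 30738 isoforms in the table. The table lists 13999 genes in all, 13962 with a gene identifier and 37 isoforms without one that were each taken alone. Membership followed the symbol, but the family and the left-out genes, *Cpr66D* and *Cpr72Ec*, were chosen with earlier results of these data known. The set is therefore not independent of the measured values, and the values of the left-out genes are given below. All 68 carry the same symbol in the Ensembl gene annotation of Release 6 (dm6), which gave the coordinates used here.

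Insect cuticle is secreted at the surface of epidermal cells as layers of chitin fibres embedded in protein. Cpr proteins carry the Rebers and Riddiford consensus, a stretch that binds chitin, and which of them are made sets much of the difference between soft and stiff cuticle. Many are made in pulses around a moult or before eclosion, and the head, like the rest of the fly surface, also keeps living epidermis under its cuticle in the adult. Hair and bristle sockets, the lining of the tracheae and the foregut are further sites of cuticle.

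Heads were compared between controls (*elav-GAL4/* +), which carry the pan-neuronal driver alone, and tau transgenic *Drosophila* (*elav-GAL4/* + with *UAS-tauR406W/* +), in which the same driver expresses human tau with the R406W substitution in neurons. All flies were at day 10 of adulthood, each library came from a pool of 500 heads, and each genotype had 3 libraries. Native polyA RNA was read by nanopore direct RNA sequencing, in which each read comes from 1 RNA molecule. Values are TPM, here a read's share of all assigned reads scaled to a fixed total, without division by transcript length, so levels of different genes are compared as shares of molecules read. From 573001 to 910700 reads were assigned to isoforms in control libraries and from 684408 to 1329914 in tau libraries, and 3 reads, taken as the least that can be told from 0, were worth 2.26 to 5.24 TPM. Of the 187 values above 0 of the summed Cpr genes, 187 were within 0.05 of a whole number of reads. Intervals of these counts cover counting error only. P-values measure the spread between the 3 pools of a genotype. In heads, fewer cells of a type and less RNA per cell cannot be told apart.

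Known genes of head tissue were read at high levels. Genes of midgut and testis, tissues outside the head, were read as well. The photoreceptor genes *ninaE*, *ninaC*, *trp* and *norpA* summed to between 23256 and 33983 TPM per library, and the glial genes *Gs2*, *nrv2*, *alrm* and *repo* to between 868 and 1213 TPM. The neuronal genes *nSyb*, *Syt1*, *brp* and *elav* summed to between 340 and 536 TPM, although *elav* itself was at or under 3 reads in all 6 libraries, between 0 and 2.63 TPM. The midgut list (*alphaTry*, *betaTry*, *deltaTry*, *Jon65Aiv*, *Jon25Bi* and *Mal-A1*) summed to 4163, 2220 and 2825 TPM in controls and to 1939, 2082 and 1465 TPM in tau libraries. The 4 testis genes with a read, *Mst84Da*, *Mst84Db*, *Mst98Ca* and *ProtA*, summed to between 190 and 350 TPM, and *dj* was listed at 0. The fat body list summed to between 28412 and 44006 TPM, with 1 of 6 genes higher in tau, and the muscle list to between 733 and 1357 TPM, with 4 of 4 higher. Of either list 0 genes passed the test used here, against 1.08% of all genes tested.

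Most of the Cpr family was at or near 0 in these heads. Of the 68 genes, 15 averaged 5 TPM or more across the 6 libraries, which is 22.1% of the family against 64.1% of all genes in the table. A further 11 genes had a mean under 5 TPM but more than 3 reads in at least 1 library, and 21 had 1 to 3 reads in a library at most. The remaining 21 were listed at 0 in all 6 libraries, which is 30.9% of the family against 7.46% of all genes. Over the 5282484 reads assigned in all libraries together, 3 reads were worth 0.568 TPM, taken as the level that a count of 0 allows. This limit is not one of the exact Poisson intervals given below. Counted by genotype, 17 genes had a mean of at least 5 TPM in controls and 13 in tau transgenic *Drosophila*, and 10 genes reached 5 TPM in each of the 6 libraries. The gene just inside the 5 TPM limit was *Cpr64Ad*, with a mean of 5.22 TPM, and the gene just outside it was *Cpr65Ax2*, with 4.46 TPM.

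The levels were very uneven among the genes read. *Cpr65Au* and *Cpr67B* held between 52.2% and 73.6% of the Cpr TPM of a library. The whole family summed to 854, 613 and 607 TPM in control replicates 1, 2 and 3 and to 658, 720 and 789 TPM in tau replicates 1, 2 and 3. The sum averaged 692 ± 141 TPM in controls and 722 ± 65.5 TPM in tau (± SD of 3 libraries per genotype). Control libraries thus held both the highest and the lowest sum, and the genotypes overlapped. Cpr reads made up between 0.0607% and 0.0854% of a library.

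Cpr genes lie in clusters of neighbours on the chromosome, and within a cluster the levels differed greatly. On chromosome 3L, the 7 members named 65A stretch over 30.3 kb, from 6131242 to 6161589, beside larval and adult cuticle genes of the Lcp65A group. *Cpr65Au*, at one end of this run on the minus strand (6131242 to 6132109), held 96.6% of the TPM of its 7 members. Its next member, *Cpr65Av*, had 5 reads over all libraries, and *Cpr65Aw* and *Cpr65Ay* were listed at 0. *Cpr65Ax1* and *Cpr65Ax2* are neighbouring copies, whose isoforms Cpr65Ax1-RA and Cpr65Ax2-RA had equal values in each library, so their reads were not resolved between the copies.

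At 67F on the same arm, 3 genes lie within 4.7 kb on the plus strand. *Cpr67Fb*, the last of them (10894173 to 10894693), held 93.8% of their TPM, with 206 reads over all libraries against 7 each for *Cpr67Fa1* and *Cpr67Fa2*. On chromosome 2R, 3 of the 8 genes at 49A had a mean of at least 5 TPM, *Cpr49Ab*, *Cpr49Ae* and *Cpr49Ag*, and they were interleaved with *Cpr49Ac* and *Cpr49Ad*, listed at 0, and *Cpr49Af*, with 3 reads. At 47E, also on 2R, *Cpr47Ee* (11265126 to 11266856) held 75.1% of the TPM of 7 genes, while *Cpr47Eb*, *Cpr47Ec* and *Cpr47Ed* before it were listed at 0. At 76B the 4 genes had 12 reads in all, and *Cpr72Ea* and *Cpr72Eb*, next to the left-out *Cpr72Ec*, had 0. By chromosome arm, 7 of the 33 members on 3L and 6 of the 21 on 2R had a mean of at least 5 TPM, as did 1 of 5 on 3R, 1 of 4 on X and 0 of 5 on 2L.

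**Figure D1:**
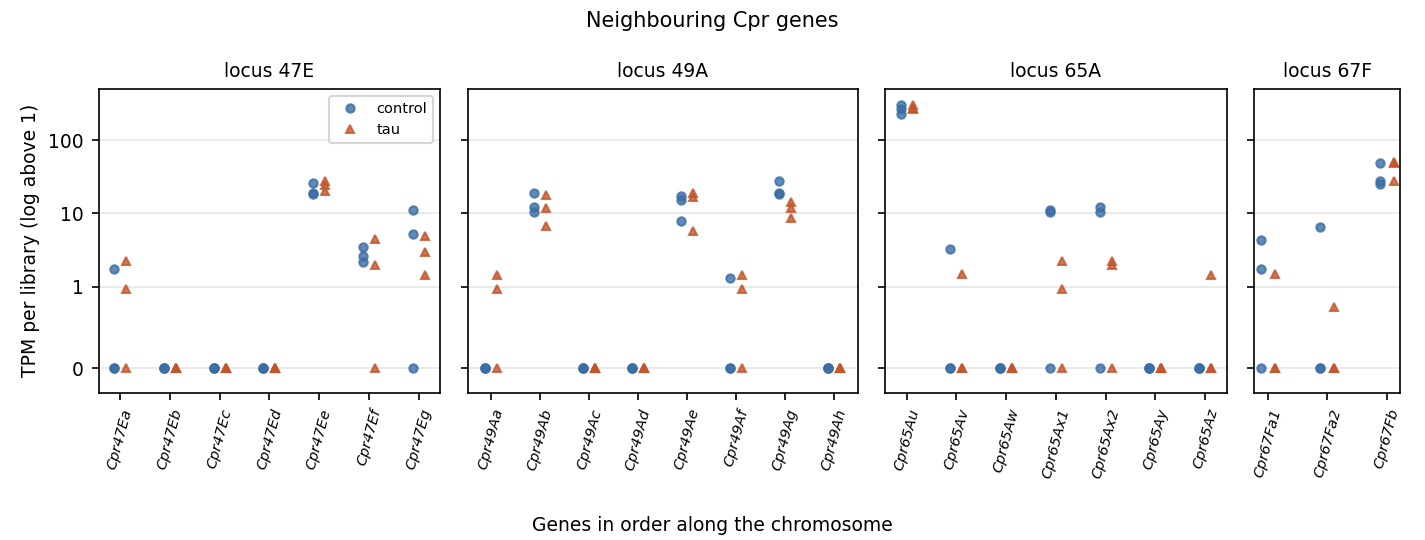
TPM of each library (vertical axis, logarithmic above 1 TPM) for the Cpr genes at 4 loci, in their order along the chromosome (horizontal axis), with control libraries as circles and tau libraries as triangles. In each locus most neighbours sit at or near 0 TPM, while *Cpr47Ee*, *Cpr49Ab*, *Cpr49Ae*, *Cpr49Ag*, *Cpr65Au* and *Cpr67Fb* are read in all 6 libraries.

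*Cpr65Au* was the most abundant member. It was at 304, 269 and 225 TPM in control replicates 1, 2 and 3 (277, 204 and 129 reads) and at 267, 271 and 302 TPM in tau replicates 1, 2 and 3 (183, 361 and 309 reads). The exact 95% Poisson intervals ran from 188 to 268 TPM in the lowest library, control replicate 3, and from 269 to 342 TPM in the highest, control replicate 1. The genotypes overlapped fully, with a log2 fold change of 0.083 (95% interval -0.22 to 0.39, adjusted p = 0.959 in limma). That interval lies within a 2-fold difference in either direction.

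*Cpr65Au* has 2 annotated isoforms with the same exons but for the 3’ end, which runs 73 nt further in Cpr65Au-RB. The shorter Cpr65Au-RA made up 94.5% ± 1.26 of the gene's TPM in controls and 94.3% ± 3.15 of it in tau (± SD of 3 libraries). Cpr65Au-RB was at 14.4 ± 1.28 TPM in controls and, on average, at 16.0 ± 8.91 TPM in tau, with an adjusted p of 0.994 in limma. The use of the 3’ ends therefore differed by less than the spread between libraries.

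*Cpr67B* (chromosome 3L, plus strand, 9404797 to 9406174) came next. It was at 142, 183 and 126 TPM in controls and at 167, 180 and 228 TPM in tau. Tau replicate 3 was above all controls, while the other tau libraries fell below control replicate 2. The log2 fold change was 0.35 (95% interval -0.032 to 0.74), with an adjusted p of 0.677 in limma.

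Below this pair, 8 genes had means between 13.1 and 37.9 TPM and were above 3 reads in all 6 libraries. *Cpr67Fb* was at 49.4, 25.0 and 27.9 TPM in controls and at 49.7, 48.1 and 27.3 TPM in tau, so that each genotype held high and low libraries. *Cpr51A* (chromosome 2R, minus strand, 14512559 to 14515211) was at 40.6, 9.21 and 17.5 TPM in controls and at 20.5, 24.8 and 17.6 TPM in tau. Here the tau libraries lay inside the range of the controls. *Cpr47Ee* was between 18.4 and 26.4 TPM in controls and between 20.5 and 27.3 TPM in tau. *Cpr62Bb* (chromosome 3L, minus strand, 1832636 to 1835164) had the smallest SD among controls of the 15 genes, with values from 15.7 to 16.5 TPM in controls and from 16.1 to 18.8 TPM in tau. Its 3 isoforms differ at the 5’ end, and Cpr62Bb-RC made up 65.9% ± 13.9 of its TPM in controls and 65.2% ± 3.66 of it in tau (± SD of 3 libraries). These shares rest on few reads, in part split between isoforms. In control replicate 1, Cpr62Bb-RA and Cpr62Bb-RC were given 7.50 reads each.

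**Figure D2:**
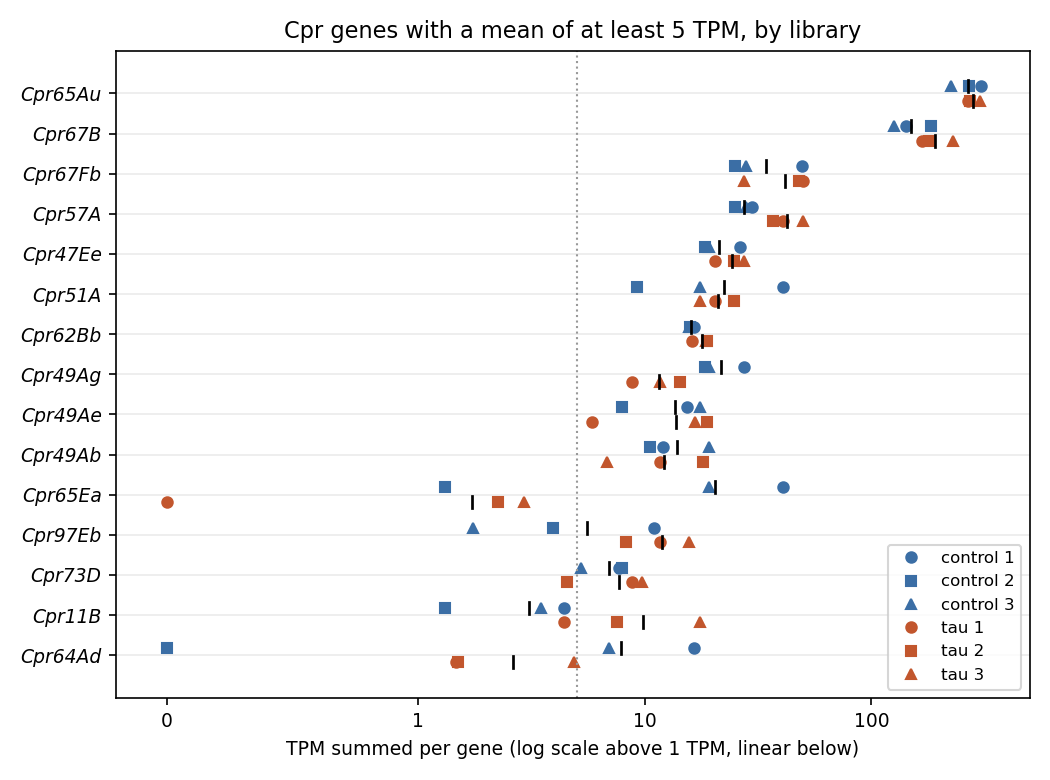
TPM summed per gene (horizontal axis, logarithmic above 1 TPM and linear below) for the 15 Cpr genes that averaged 5 TPM or more, with 1 point per library, controls in blue and tau in orange, black bars for the mean of each genotype and a dotted line at 5 TPM. *Cpr65Au* and *Cpr67B* stand above the others, the genotypes are apart for *Cpr57A* and *Cpr49Ag*, and *Cpr65Ea* spans 0 to 40.6 TPM.

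Whether expression of tau in neurons goes with a change in cuticle genes of the head was asked for the 15 genes that could be tested. None of the 15 passed an adjusted p of 0.05 in limma on log2(TPM + 1), against 97 of 8967 genes tested, or 1.08%. An unadjusted p under 0.05 was reached by 3 of the 15 Cpr genes, *Cpr49Ag*, *Cpr57A* and *Cpr65Ea*, against 8.15% of all genes tested. The log2 fold changes had a median of 0.13 in the Cpr genes and of -0.035 over all genes tested, with 10 of the 15 higher and 5 lower in tau. *Cpr65Ea* and *Cpr64Ad* passed the filter through control libraries and *Cpr11B* through tau libraries, so these counts describe the genes tested and not the family. They do not cover the left-out genes, which both averaged over 5 TPM. Control and tau values were fully apart for 2 of the 15 genes, against 13% of all genes tested. Of the left-out genes, *Cpr72Ec* was at 29.6, 42.1 and 24.4 TPM in controls and at 5.84, 15.04 and 11.7 TPM in tau, with the genotypes apart and a log2 fold change of -1.53 (95% interval -2.31 to -0.75, adjusted p = 0.0765 in limma). It passed under 0 of 15 alternatives, with an adjusted p from 0.0522 to 0.354 in limma. *Cpr66D* was between 2.63 and 12.1 TPM in controls and between 2.92 and 6.02 TPM in tau, with an adjusted p of 0.959 in limma.

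*Cpr57A* (chromosome 2R, minus strand, 20548368 to 20550117) was one of the 2 tested members with the genotypes apart. It was at 29.6, 25.0 and 27.9 TPM in controls and at 40.9, 36.8 and 49.8 TPM in tau. All tau libraries were above all controls, but the exact Poisson intervals of single libraries overlapped, from 19.5 to 43.1 TPM in control replicate 1 and from 27.3 to 48.7 TPM in tau replicate 2. The log2 fold change was 0.60 (95% interval 0.11 to 1.10, adjusted p = 0.437 in limma). All its reads were assigned to the short isoform Cpr57A-RA, and the longer Cpr57A-RB was listed at 0 in all 6 libraries.

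*Cpr49Ag* (chromosome 2R, plus strand, 12407793 to 12408523) was the other member with the genotypes apart. It was at 27.5, 18.4 and 19.2 TPM in controls and at 8.77, 14.3 and 11.7 TPM in tau. All tau libraries were below all controls, with 6 to 19 reads each in tau and 11 to 25 in controls. The log2 fold change was -0.85 (95% interval -1.55 to -0.16, adjusted p = 0.427 in limma). Its neighbours did not share this order. *Cpr49Ae* was at 15.4, 7.90 and 17.5 TPM in controls and at 5.84, 18.8 and 16.6 TPM in tau, and *Cpr49Ab* at 12.1, 10.5 and 19.2 TPM in controls and at 11.7, 18.05 and 6.83 TPM in tau. Both had the genotypes mixed.

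The genes *Cpr97Eb* and *Cpr11B* had higher means in tau. *Cpr97Eb* (chromosome 3R, minus strand, 27089704 to 27091130) was at 11.0, 3.95 and 1.75 TPM in controls and at 11.7, 8.27 and 15.6 TPM in tau, where control replicate 1 lay among the tau libraries. Its log2 fold change was 1.20 (95% interval -0.0065 to 2.40, adjusted p = 0.616 in limma). *Cpr11B* (chromosome X, plus strand, 12553124 to 12554235) was at 4.39, 1.32 and 3.49 TPM in controls and at 4.38, 7.52 and 17.6 TPM in tau. Tau replicate 3 was the highest library, with 18 reads, and the gene had a log2 fold change of 1.31 (95% interval -0.022 to 2.64, adjusted p = 0.621 in limma). *Cpr73D*, which spans 18.6 kb on 3L through the longer of its isoforms, was between 5.24 and 7.90 TPM in controls and between 4.51 and 9.76 TPM in tau.

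**Figure D3:**
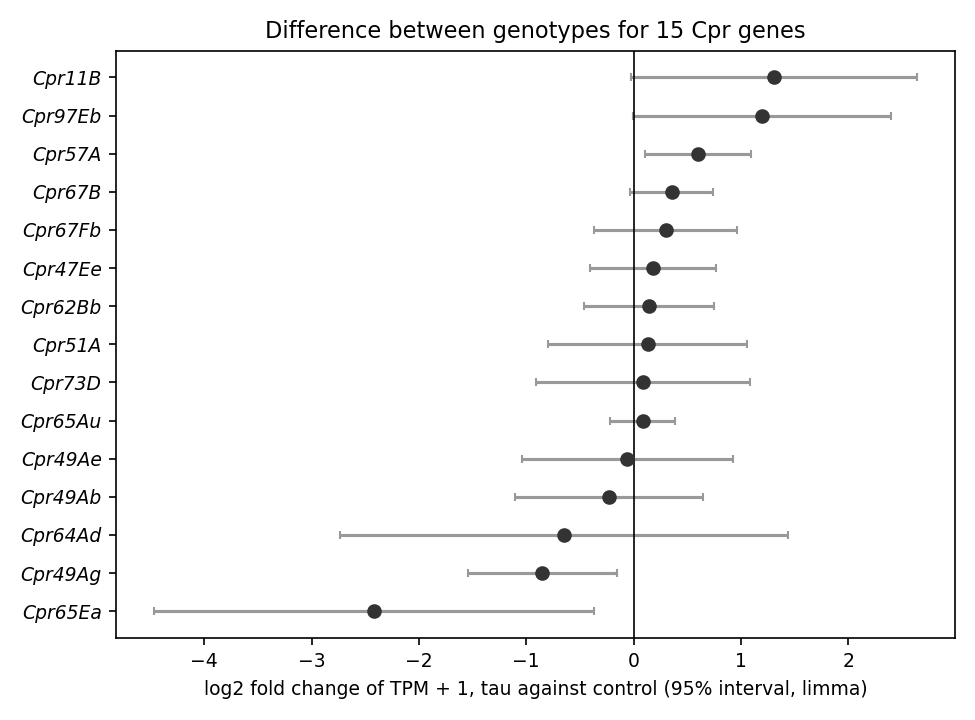
Log2 fold change of TPM + 1 in tau against control (horizontal axis) for the 15 Cpr genes tested, with 95% intervals from limma as bars. The intervals of *Cpr57A*, *Cpr49Ag* and *Cpr65Ea* do not hold 0 before adjustment, and no gene passed after it.

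The precision of these comparisons varied with the level. The 95% intervals of 5 of the 15 genes lay within a 2-fold difference in either direction, and these were *Cpr65Au*, *Cpr67B*, *Cpr67Fb*, *Cpr47Ee* and *Cpr62Bb*. The intervals of the other 10 reached past a 2-fold difference in at least 1 direction. Where an interval lay depended on the size of the difference as well as on precision. *Cpr57A* was among the 10 with a standard error of 0.229, below the 0.308 of *Cpr67Fb*. At the level of isoforms, 15 isoforms of 14 Cpr genes were tested and 0 passed, against 0.758% of the 12800 isoforms tested, with 3 of the 15 at an unadjusted p under 0.05 against 8.21% of all isoforms tested.

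*Cpr65Ea* (chromosome 3L, minus strand, 7086003 to 7086608) had the largest fitted difference of the tested members, with its controls far apart. It was at 40.6, 1.32 and 19.2 TPM in controls (37, 1 and 11 reads) and at 0, 2.26 and 2.93 TPM in tau (0, 3 and 3 reads). Control replicates 1 and 3 were above all other libraries, and control replicate 2 lay among the tau libraries. The exact Poisson intervals of the controls ran from 28.6 to 56.0 TPM in replicate 1 and from 0.0333 to 7.33 TPM in replicate 2, so counting error does not span the gap between them. The log2 fold change was -2.42 (95% interval -4.47 to -0.37), with an adjusted p of 0.467 in limma. Without control replicate 2 it was -3.63 and passed, with an adjusted p of 0.0311 in limma. Without control replicate 1 it was -1.55, with an adjusted p of 0.782 in limma, and with a pseudocount of 5 it was -1.53. Over the 13 alternatives that kept the gene the adjusted p ranged from 0.0311 to 0.880.

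The same order of the control libraries was seen in other low members. Chosen after their values were seen, 8 Cpr genes had at least 5 reads in control replicate 1 and at most 1 in control replicate 2. They were *Cpr65Ea*, *Cpr64Ad*, *Cpr65Ax1*, *Cpr65Ax2*, *Cpr47Eg*, *Cpr78Cc*, *Cpr64Ab* and *Cpr67Fa2*. Together they had 104, 1 and 31 reads in control replicates 1, 2 and 3 and 2, 16 and 17 reads in tau replicates 1, 2 and 3. As summed levels these are 114, 1.32 and 54.1 TPM in controls and 2.92, 12.03 and 16.6 TPM in tau. Among all genes with a mean from 1 to 20 TPM, 6.66% met the same limits, against 8 of the 26 Cpr genes in that range, and the limits themselves were set on these genes. *Cpr65Ax1* and *Cpr65Ax2*, whose reads were not resolved, were counted as separate genes. With tau replicate 1 in place of control replicate 2, the limits were met by 9 Cpr genes and by 436 genes in all, against 8 and 442.

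*Cpr64Ad* was at 16.5, 0 and 6.98 TPM in controls and at 1.46, 1.50 and 4.88 TPM in tau. Its log2 fold change was -0.65 (95% interval -2.74 to 1.44, adjusted p = 0.957 in limma), and without control replicate 2 it was -1.84, with an adjusted p of 0.396 in limma. *Cpr65Ax1* and *Cpr65Ax2*, summed because their reads were not resolved, were at 23.1, 0 and 20.9 TPM in controls and at 0, 4.51 and 2.93 TPM in tau. Taken as 1 gene, a choice made after their values were seen, they averaged 8.57 TPM, and the log2 fold change was -1.54, with an adjusted p of 0.831 in limma. The pair passed the filter of 5 TPM through control libraries, as did *Cpr64Ad*, so the direction of these values is not independent of the filter. *Cpr47Eg* was at 11.0, 0 and 5.24 TPM in controls and at 1.46, 3.01 and 4.88 TPM in tau. In each of these genes control replicate 2 was at 0 and control replicate 1 the highest library.

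The remaining members under 5 TPM with more than 3 reads in a library were near the limit of detection. *Cpr78Cc*, *Cpr64Ab*, *Cpr67Fa1* and *Cpr67Fa2* reached 4.39 to 8.78 TPM in control replicate 1 and were at 1.75 TPM or less in every other library. *Cpr62Bc* ranged from 0 to 7.69 TPM, *Cpr60D* from 2.20 to 5.26 TPM, *Cpr47Ef* from 0 to 4.51 TPM and *Cpr100A* from 0 to 3.95 TPM. Of these, *Cpr60D* was the only one with a read in all 6 libraries.

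Depth did not order the libraries in this respect. Control replicate 1 had at least 1 read for 42 of the 68 Cpr genes, against 35 in tau replicate 2 and 33 in tau replicate 3, which were both sequenced more deeply. Control replicates 2 and 3 had 20 and 30, and tau replicate 1 had 27. Over all genes of the table, too, control replicate 1 had the most with a read, 12036, and control replicate 2 the fewest, 11186, with 11983 in tau replicate 2 and 11697 in tau replicate 3. Of the 32 Cpr genes that were read but had a mean under 5 TPM, 20 (62.5%) were highest in control replicate 1. The same was true of 31.4% of the 3988 genes in the table in that range. These 53 members under 5 TPM summed to 111, 17.1 and 55.8 TPM in controls and to 23.4, 39.9 and 32.2 TPM in tau.

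**Figure D4:**
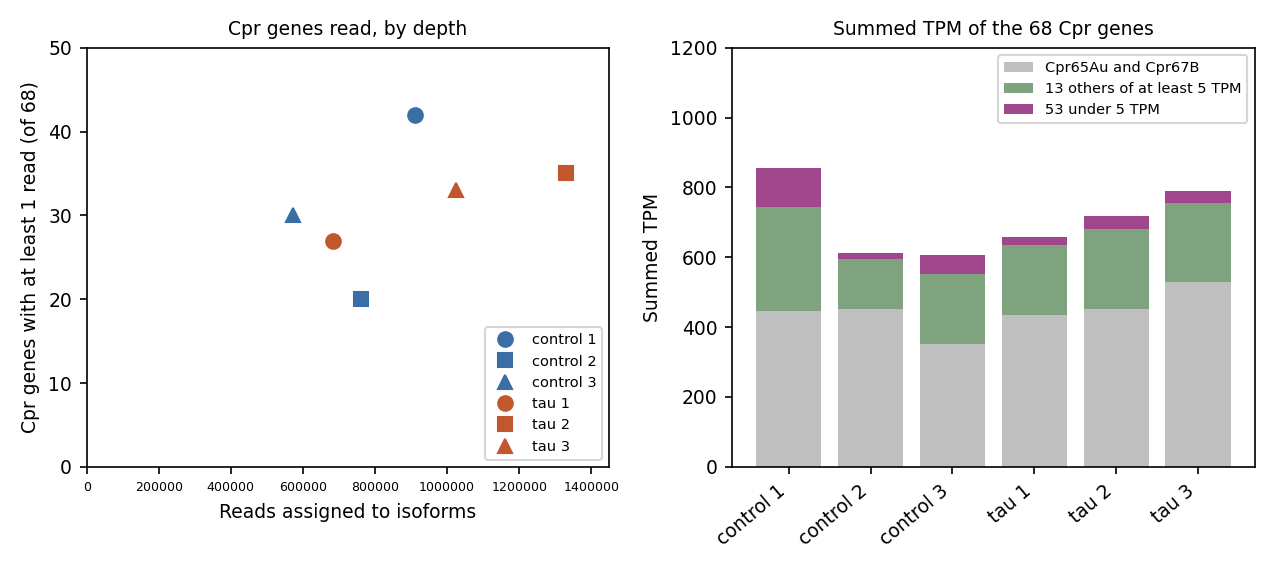
Left, the number of the 68 Cpr genes with at least 1 read (vertical axis) against the reads assigned in each library (horizontal axis, in reads), with 42 in control replicate 1 and 20 in control replicate 2. Right, the summed TPM of the family in each library (vertical axis), stacked as *Cpr65Au* and *Cpr67B*, the 13 other genes of at least 5 TPM, and the 53 genes under 5 TPM, which sum to 111 TPM in control replicate 1 and to between 17.1 and 55.8 TPM elsewhere.

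The summed levels of 3 marker lists, of midgut, trachea and testis, were also highest in control replicate 1, as were 5 of the 6 midgut genes, 2 of the 5 tracheal genes and 2 of the 4 testis genes with a read. The midgut list was at 4163 TPM there, and all 6 of its genes had a lower fitted level in tau, 1 of them past the threshold, *betaTry* (log2 fold change -1.29, adjusted p = 0.00444 in limma). Over all genes tested, 1.08% passed. The tracheal list (*trh*, *vvl*, *Gasp*, *verm* and *serp*), markers of a tissue that is itself lined with cuticle, held *Gasp*, *verm* and *serp* of the cuticle lists and was at 150, 89.5 and 108 TPM in controls and at 92.1, 114 and 123 TPM in tau. The testis list was at 350, 190 and 344 TPM in controls and at 308, 249 and 200 TPM in tau. Their part in the levels of the Cpr genes was not tested.

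Other cuticle genes were counted from lists of the pathway. Among 27 genes with the same chitin-binding consensus but other names (Lcp, Ccp84A, *Acp65Aa*, *Pcp*, *Edg78E*, *Edg84A* and *resilin*), 16 had a read, 3 were tested and 0 passed, against 1.08% of all genes tested. At that share, 0 passing in a list as short as those used here says little about the list. The 3 were *Lcp65Ag1*, *Lcp65Ag2* and *Lcp65Ag3*, larval cuticle genes of the 65A cluster, with a median log2 fold change of -1.33. *Lcp65Ag1* and *Lcp65Ag2* passed the filter through control libraries, so this median describes the genes tested and not the list. *Lcp65Ag2* was at 48.3, 0 and 15.7 TPM in controls and at 1.46, 4.51 and 8.78 TPM in tau (adjusted p = 0.934 in limma), and *Lcp65Ag3* at 37.3, 3.95 and 19.2 TPM in controls and at 2.92, 6.02 and 7.81 TPM in tau (adjusted p = 0.647 in limma). In each, control replicate 1 was the highest library, and control replicate 2 was at or under 3 reads. The whole list summed to 135, 7.9 and 71.6 TPM in controls and to 10.2, 21.8 and 27.3 TPM in tau.

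The list of other structural genes held 39 Tweedle, obstructor, Vajk and related genes, of which 9 were tested and 0 passed, against 1.08% of all genes tested. Of the 9, 4 were higher and 5 lower in tau, with a median log2 fold change of -0.87. *TwdlF* and *TwdlD* passed the filter through control libraries and *Vajk2* through tau libraries, so these values describe the genes tested and not the list. The most abundant members of the list were *obst-E*, a chitin-binding protein of larval and pupal cuticle, at 50.9 ± 9.32 TPM in controls and 51.8 ± 4.19 TPM in tau, and *Gasp*, a chitin-binding protein of the tracheae, at 33.5 ± 14.6 TPM in controls and 37.03 ± 5.21 TPM in tau (± SD of 3 libraries). Adjusted p-values were 0.988 and 0.954 in limma. *TwdlM*, of the Tweedle family of cuticle proteins, was at 49.4, 2.63 and 27.9 TPM in controls and at 5.84, 5.26 and 11.7 TPM in tau, again with control replicate 2 apart from the other controls. It was named after its values were seen, as was *TwdlF*, at 46.1, 3.95 and 22.7 TPM in controls and at 0, 3.01 and 6.83 TPM in tau. The genotypes were apart for 1 of the 9 tested genes, *TwdlD*, against 13% of all genes tested. *TwdlD* was at 32.9, 3.95 and 10.5 TPM in controls and at 2.92, 0.752 and 1.95 TPM in tau. Its log2 fold change was -2.19, with an adjusted p of 0.281 in limma.

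**Figure D5:**
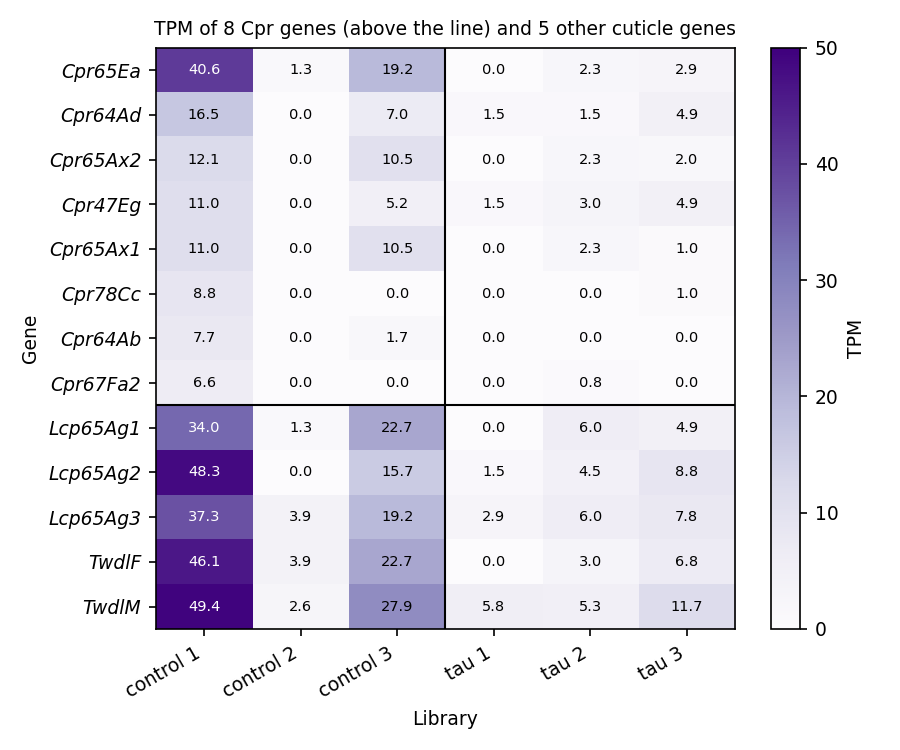
TPM in each library (columns, controls left of the vertical line) of the 8 Cpr genes with at least 5 reads in control replicate 1 and at most 1 in control replicate 2, above the horizontal line, and of 5 other cuticle genes below it, with darker cells for higher TPM. Control replicate 1 is the darkest cell of every row, followed by control replicate 3 in all but *Cpr78Cc* and *Cpr67Fa2*.

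Among genes that make chitin, control replicate 2 was most often the highest library, for 6 of 25. For genes that tan cuticle, control replicate 1 was tied with other libraries. Control replicate 1 was the highest for 10 of 16 read genes of the list with the same consensus and for 21 of 29 of the other structural genes, against 4 of 25 of the chitin list and 4 of 21 of the tanning list. Of all genes that were read but had a mean under 5 TPM, 31.4% were highest in control replicate 1. The lists differ in level, so these counts are not compared at equal levels. Among 25 genes of chitin synthesis and remodelling, 10 were tested and 0 passed, against 1.08% of all genes tested. Of the 10, 4 were higher and 6 lower in tau, with a median log2 fold change of -0.049. *mmy*, which makes the sugar nucleotide that chitin is built from, was at 62.0 ± 6.41 TPM in controls and 60.2 ± 10.3 TPM in tau, and *Gfat1*, at the head of the same route, at 30.02 ± 9.19 TPM in controls and 43.95 ± 8.63 TPM in tau (± SD of 3 libraries). Their adjusted p-values were 0.981 and 0.627 in limma. Among 23 tanning and pigmentation genes, 16 were tested and 0 passed, against the same 1.08%, with 8 in each direction and a median of 0.041. *Hn*, phenylalanine hydroxylase, was at 421, 449 and 454 TPM in controls and at 384, 376 and 370 TPM in tau (adjusted p = 0.653 in limma), with the genotypes apart, and *yellow-c* was at 168 ± 13.8 TPM in controls and 168 ± 24.3 TPM in tau (adjusted p = 0.999 in limma). The chitin list summed to between 226 and 275 TPM and the tanning list to between 1230 and 1358 TPM in the 6 libraries. Single genes of these lists ranged more widely, such as *yellow-e*, from 1.32 to 33.8 TPM, chosen after its values were seen.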

How the data were processed

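After basecalling by Guppy (v5.1.12), the authors mapped reads to FlyBase transcripts (release 6.43) in minimap2 with up to 10 secondary alignments and deposited TPM values per isoform from NanoCount (v1.0.0). The authors' deposited columns of their own DESeq2 comparison (a mean normalized signal, log2 fold changes, their errors, a test score, p-values) were not used. The TPM of 1 read was read from the commonest low value of each library, which gave the assigned reads. Across all isoforms about 47.2% to 50.7% of values above 0 were whole reads. The values used are TPM and not counts, so no count test was run.

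TPM was summed per gene. Genes and isoforms that averaged 5 TPM or more were tested with limma (v3.58.1, R v4.3.3; lmFit, eBayes with trend, two-sided) on log2(TPM + 1), which understates changes of low genes, with 6 libraries, no covariate and Benjamini-Hochberg adjustment over all features tested. The fit was tested on simulated data in which only genes of higher levels were changed, so the low Cpr genes were not covered. Counting intervals were exact Poisson intervals (scipy v1.17.1), and tables were handled in pandas (v2.3.3). Membership followed the gene symbol, but the family, the 2 genes left out and the lists were chosen with earlier results of these data known. Every member of at least 5 TPM was named, those under it with more than 3 reads in a library, and per list the 2 most abundant genes and any gene called. Alternatives were another pseudocount, filter, scaling or variance model, a replicate block, and each library left out. The 6 short-read control libraries were not analysed here.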

Additional observations from a re-analysis of the deposited data

How the results depend on the processing

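No Cpr gene that was tested passed under another pseudocount, filter, scaling, variance model or the replicate block. Members under 5 TPM entered only some of these fits, and the 21 listed at 0 in all libraries entered none. With a library left out, the number of Cpr genes called ranged from 0 to 1 (*Cpr65Ea*, without control replicate 2), that of Cpr isoforms stayed at 0, and that of the other cuticle genes ranged from 0 to 1 (*TwdlM*, log2 fold change -2.22, adjusted p = 0.0320 in limma, in the same fit). Of all genes tested, 97 were called, 42 without a filter on low values, 4 without the trend, and 29 to 105 with a library left out, the lowest without control replicate 3 (29) and tau replicate 3 (50). With the replicate block, 77 genes and 0 Cpr genes were called. Deviations of same-numbered libraries had correlations of -0.0017, 0.0654 and -0.0719, so these libraries showed little shared deviation. Whether same-numbered libraries were prepared together is not given in the labels. The number of Cpr genes with a mean of at least 5 TPM ranged from 14 to 17 with a library left out and was 16 with *Cpr65Ax1* and *Cpr65Ax2* summed, a choice made after seeing the data. The log2 ratio of summed Cpr TPM was 0.062 and ranged from -0.024 to 0.24 with a library left out.

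Directions turned with a library left out for members with differences near 0, with log2 fold changes from -0.031 to 0.19 for *Cpr65Au*, -0.35 to 0.66 for *Cpr51A*, -0.38 to 0.42 for *Cpr49Ae*, -0.54 to 0.10 for *Cpr49Ab* and -0.096 to 0.39 for *Cpr73D*. The cause was not tested. Depth limits the members under 5 TPM, which rest on few reads.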
